A study of Mus musculus with 2 samples.

Results

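Chromatin accessibility was examined at 8 regulators of the T lymphoid lineage, Notch1, Hes1, Tcf7, Lef1, Bcl11a, Bcl11b, Satb1 and Tox, in hematopoietic stem cells (HSCs) of young and aged mice. The genes were taken as a fixed list, named by their role in the lineage but drawn up with earlier results of these data known, and they are 8 of the 21755 protein-coding genes annotated on the autosomes and the X chromosome. Single-cell ATAC-seq, which tags open chromatin with a transposase in droplet-barcoded nuclei, was performed on 1 library of HSCs from 10-week-old mice (Young) and 1 library from 20-month-old mice (Aged). Both groups were C57BL/6 mice, female per the methods of the study, and untreated as far as the labels say. Bone marrow cells of both ages were sorted as positive for Sca-1, c-kit and CD150, and as negative for IL-7, Lin, CD34, CD48 and Flt3. The labels do not say whether mice were pooled. With 1 library per age, no difference between ages has a replicate check, no test was possible, and age cannot be told apart from any other difference between the libraries. All intervals are 95% and cover counting error only.

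T lineage specification in the thymus depends on Notch signaling. Binding of a ligand lets proteases cleave the Notch1 receptor, which releases an intracellular domain that acts with Rbpj on targets such as Hes1 and Tcf7. Tcf7 and Lef1 are related HMG-box factors of the Wnt pathway, Bcl11b closes the route to other lineages, its paralog Bcl11a serves B lymphoid and erythroid cells, and Satb1 and Tox are nuclear proteins that organize chromatin or take part in thymocyte selection. Several of these genes are also transcribed in HSCs and multipotent progenitors, so open promoters at this stage are not by themselves T lineage chromatin.

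The kept cells were 4887 young and 3405 aged barcodes, called as cells and with between 3000 and 20000 in-peak fragments by the authors' count. This is not the cell set of the study, which kept more cells at both ages. Within the same limits lay 123 young and 131 aged barcodes that were not called as cells, and with these added the log2 ratio of aged to young was 0.55 over the Tox body and 0.39 over the Bcl11b body. The kept cells held 50069575 and 38663214 unique fragments, with medians of 9890 and 11020 per cell. The aged library had fewer fragments shorter than the DNA of 1 nucleosome (55.0% against 59.8%), fewer in peaks (67.7% against 69.2%), a lower median TSS enrichment (5.30 against 5.78) and more cells with the fragment pattern of doublets (7.34% against 4.19%), and the part of these in the differences was not tested. The libraries shared 26 kept barcodes, and no count of promoters, gene bodies or bins changed without them. Of 12 HSC markers, 11 promoters passed the minimum of 100 fragments in the libraries together, and the sum over all 12 was 290 and 295 FPM. FPM is the number of fragments with at least 1 end in a region per 1000000 fragments in peaks of the library. Of 12 T cell markers 3 passed, the sum was 51.0 FPM in young and 45.4 FPM in aged HSCs, and most of that came from the promoter of Lat, a signaling adaptor, with 34.4 and 34.0 FPM. The promoters of the T cell receptor component Cd3e (0.837 and 0.573 FPM) and of the coreceptor Cd4 (2.11 and 0.726 FPM) lay far below the median promoter of all protein-coding genes (14.7 and 15.4 FPM).

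The promoters of all 8 genes lay within the middle 90% of the log2 ratios of all promoters, and 7 of them within 0.32 of 0 on that scale, the limit used for promoters and gene bodies. Promoters are windows of 1 kb on either side of the annotated 5′ end of the gene. Hes1 was the most open, with 62.3 FPM in young and 61.4 FPM in aged HSCs. Bcl11a followed with 39.4 and 38.8 FPM, Tox with 29.1 and 34.1 FPM, Satb1 with 25.8 and 22.7 FPM, Tcf7 with 14.5 and 14.8 FPM and Lef1 with 11.9 and 12.5 FPM. Notch1 had 8.11 and 7.65 FPM at its annotated 5′ end, and Bcl11b 7.99 and 10.9 FPM. A pair of start sites 12.8 kb into Notch1 was more open, with 35.2 and 33.8 FPM. The ranking here holds for the annotated 5′ ends only. The order of levels was the same at both ages except that Notch1 and Bcl11b changed places at the bottom. In young HSCs the intervals of Tox and Satb1 overlapped, as did those of Notch1 and Bcl11b. In aged HSCs those of Tcf7 and Lef1 and of Lef1 and Bcl11b did. Overlap of separate intervals does not show that levels are equal, and the order of these neighbours was not tested.

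Bcl11b was the single promoter past that limit. It held 277 young and 284 aged fragments, which gives a log2 ratio of aged to young, after scaling, of 0.44 (0.20 to 0.69). Of all 15024 promoters with at least 100 fragments, 8.35% were past the limit higher and 2.61% past it lower, and 1 of 8 higher and 0 of 8 lower are close to these shares. The next members were Tox with 0.23 (0.10 to 0.36) and Satb1 with -0.18 (-0.34 to -0.03), whose intervals leave out 0. The interval of Satb1 held 0 when scaled to promoter fragments or with fragments shorter than the DNA of 1 nucleosome alone. The intervals of Notch1 (-0.08), Hes1 (-0.02), Tcf7 (0.03), Lef1 (0.07) and Bcl11a (-0.02) all held 0, and the widest, that of Notch1, ran from -0.35 to 0.18. The median of the 8 members was 0.00, beside -0.05 over all promoters.

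Gene bodies gave a wider spread. Tox was higher in aged HSCs, at 245.8 FPM against 168.9 FPM in young HSCs (6430 and 5853 fragments). Its log2 ratio was 0.54 (0.49 to 0.59), and 96.5% of all gene bodies lay below it. Bcl11b was also past the limit, with 40.8 and 52.0 FPM and a log2 ratio of 0.35 (0.24 to 0.46), but it dropped under the limit when scaled to all nuclear fragments (0.316), with short fragments alone (0.310) or after thinning of cells (0.267). Of 17691 gene bodies, 8.29% were past the limit higher and 2.60% past it lower, beside 2 of 8 members higher and 0 lower. Tcf7 (57.5 and 49.8 FPM, log2 ratio -0.21, -0.31 to -0.11) and Satb1 (96.6 and 84.2 FPM, -0.20, -0.28 to -0.12) were lower by less than the limit. Notch1 (-0.06), Hes1 (0.10), Lef1 (0.03) and Bcl11a (0.02) lay near 0. The median of the members was 0.02 and that of all gene bodies -0.02.

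**Figure D1:**
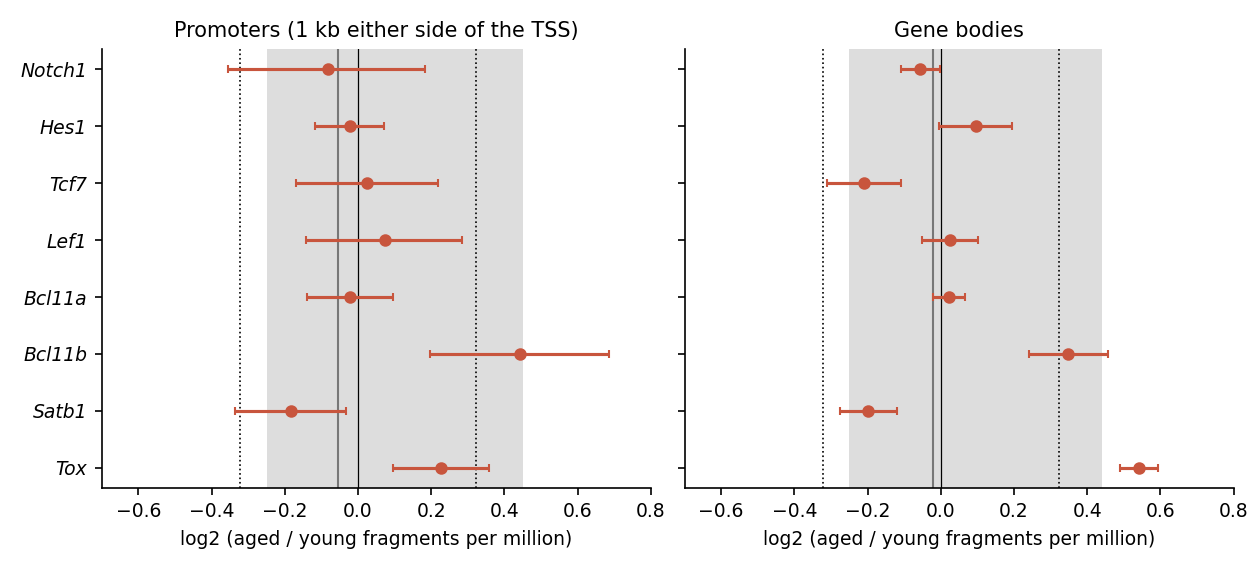
Log2 ratios of aged to young FPM (x axis) at the promoters (left) and over the gene bodies (right) of the 8 genes, with 95% counting intervals. The gray band holds the middle 90% of all genes with at least 100 fragments, the gray line is their median, and dotted lines mark the limit of 0.32. Bcl11b is the only promoter past it, at 0.44, and Tox (0.54) and Bcl11b (0.35) are the gene bodies past it.

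Around each gene, the body and 100 kb on either side were cut into bins of 500 bp, and peaks called in either library and merged were counted in the same span. The 8 loci held 4807 bins, of which 420 had at least 100 fragments, and of these 14 (3.33%) were past 2-fold higher and 2 (0.476%) past 2-fold lower in aged HSCs. Over the genome 2.60% of 182074 such bins were past 2-fold higher and 0.536% past it lower. Of 316 peaks 199 had at least 100 fragments, with 7 (3.52%) past 2-fold higher and 2 (1.01%) lower, beside 3.43% higher and 0.841% lower of 97297 peaks genome-wide. Of the 199 peaks 95 had a log2 ratio above 0. Their median was -0.02, beside 0.00 over the 97297 peaks. As a group the loci were therefore close to the background, and what follows describes where within them the differences lay. Counts, medians, ranks and fold calls of bins and peaks below cover only those with at least 100 fragments.

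**Figure D2:**
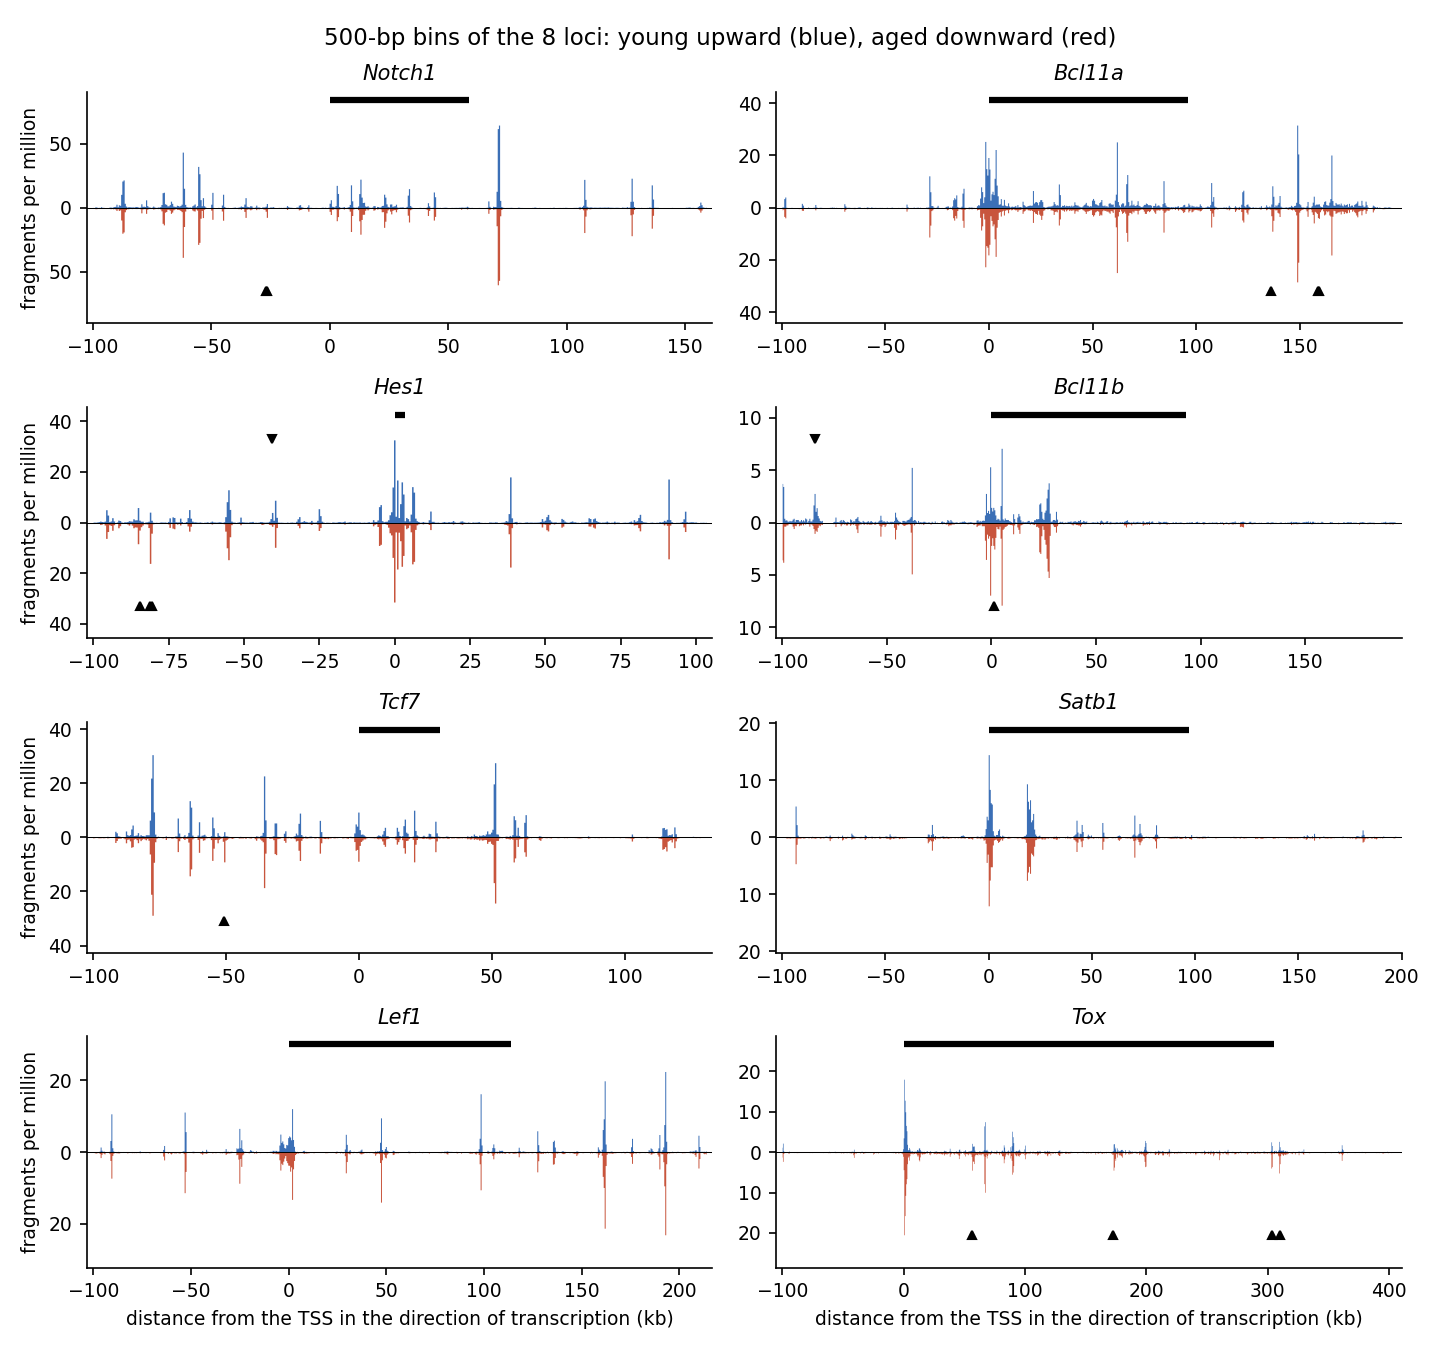
FPM in 500-bp bins (y axis, own scale per gene) by distance from the 5′ end of the gene in the direction of transcription (x axis, kb), with young HSCs drawn upward in blue and aged HSCs downward in red. Black bars are gene bodies, upward triangles mark the 14 bins past 2-fold higher in aged HSCs and downward triangles the 2 bins past it lower, of which one lies 40.6 kb upstream of Hes1.

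Sequences of 300 bp around the summit are given for some of the peaks past 2-fold, with the loci they belong to, because such peaks differ most between the libraries. They are given 5′ to 3′ on the plus strand of GRCm38, which is mm10, in lower case, with matches to a fixed set of short motifs in capitals. Motifs were searched on both strands, N being any base, and the share of the windows of all 165670 peaks that hold each is a description of the background. The AP-1 motif (TGANTCA) was in 12.3% of peaks, and the CNC motif (GCTGANTCA), which holds it, in 3.70%. The GATA motif was AGATAA, with TGATAA as its other form, and was in 23.5%. The RUNX motif (TGTGGT) was in 28.0%, the PU.1 motif (GAGGAAGT) in 8.01%, and the ETS motif (CCGGAA) in 7.08%. The E-box was CAGCTG, with CAGGTG as its other form, and was in 33.5%. The TCF/LEF motif (CTTTGA) was in 18.7%, the RBPJ motif (TGGGAA) in 25.6%, the STAT motif (TTCNNNGAA) in 9.25%, and the IRF motif (GAAANNGAA) in 12.3%. The CEBP motif (TTGCNNAA) was in 12.5%, the HOXA9 motif (TGATTTAT) in 1.54%, and the CTCF motif (AGGNGGC) in 25.9%. A match is not evidence that a factor binds there.

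Notch1 (chr2:26457903-26516663, minus strand) encodes the receptor that starts the T lineage program. Its annotated 5′ end had 281 young and 200 aged fragments, and a pair of internal start sites, 12.8 kb into the gene, was more open at both ages, with 35.2 and 33.8 FPM and a log2 ratio of -0.06 (-0.18 to 0.07). The gain past 2-fold was intergenic, 26.7 kb upstream, in a peak at chr2:26543136-26543625 with 120 fragments in young and 206 in aged cells (log2 ratio 1.18, 0.85 to 1.52). The annotated Notch1 5′ end was the nearest start of a protein-coding gene. The more open internal start sites of Notch1 lay further from the peak than the start of Egfl7. The window around the summit of the peak, chr2:26543246-26543545, held 1 GATA, 2 RUNX, 1 E-box and 1 CEBP motif.
Notch1 upstream peak, higher in aged: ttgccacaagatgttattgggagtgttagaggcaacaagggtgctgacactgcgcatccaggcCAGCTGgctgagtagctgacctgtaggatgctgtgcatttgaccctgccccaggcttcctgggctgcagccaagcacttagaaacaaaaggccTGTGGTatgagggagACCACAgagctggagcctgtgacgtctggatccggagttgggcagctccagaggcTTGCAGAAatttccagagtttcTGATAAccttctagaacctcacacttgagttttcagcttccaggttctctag
The lowest peak of the locus with at least 100 fragments was intronic, 3.10 kb from the 5′ end at chr2:26513266-26513805. It had 750 fragments in young and 329 in aged cells. Its log2 ratio was -0.78 (-0.97 to -0.59), and 1.88% of all peaks lay lower. The Notch1 gene body thus held peaks on both sides of 0: another intronic peak, 23.0 kb in, had 367 and 409 fragments (0.56, 0.36 to 0.77). Of 44 peaks of the locus 32 had at least 100 fragments, 12 of these lay above 0, and their median was -0.06. A promoter window of 5 kb on either side, which takes in the intronic peak 3.10 kb from the 5′ end, gave a log2 ratio of -0.51 in place of -0.08.

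Hes1 (chr16:30064384-30067796, plus strand) encodes a basic helix-loop-helix repressor and is a direct target of Notch. Its promoter held 2160 young and 1605 aged fragments, and its log2 ratio of -0.02 had an interval from -0.12 to 0.07. The upstream flank, in which no other protein-coding gene starts, held both a gain and a loss past 2-fold. The gain was at chr16:29982926-29983625, 81.0 kb upstream, with 154 fragments (4.44 FPM) in young and 462 (17.7 FPM) in aged HSCs. Its log2 ratio was 1.98 (1.72 to 2.26), above that of 99.5% of peaks. A pair of adjacent bins covered it, with 142 and 422 fragments in one and 31 and 110 in the other, and a separate bin 84.6 kb upstream had 32 and 78. The loss was at chr16:30023396-30023745, 40.8 kb upstream in an intron of the transcript 9030404E10Rik, with 124 fragments in young and 29 in aged cells (-1.65, -2.33 to -1.10), and 0.0956% of peaks lay lower. No other protein-coding gene starts nearer to either peak than Hes1. The window of the gain, chr16:29983196-29983495, held 1 GATA, 1 RUNX and 1 RBPJ motif, and that of the loss, chr16:30023446-30023745, held no motif of the set. The loss is shown besides the largest difference of the locus, a choice made after its values were seen.
Hes1 upstream peak, higher in aged: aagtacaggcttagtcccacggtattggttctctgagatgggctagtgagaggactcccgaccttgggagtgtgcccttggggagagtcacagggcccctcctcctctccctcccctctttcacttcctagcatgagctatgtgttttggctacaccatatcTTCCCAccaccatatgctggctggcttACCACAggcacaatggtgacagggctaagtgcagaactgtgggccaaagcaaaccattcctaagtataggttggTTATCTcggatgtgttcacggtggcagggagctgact
Hes1 upstream peak, lower in aged: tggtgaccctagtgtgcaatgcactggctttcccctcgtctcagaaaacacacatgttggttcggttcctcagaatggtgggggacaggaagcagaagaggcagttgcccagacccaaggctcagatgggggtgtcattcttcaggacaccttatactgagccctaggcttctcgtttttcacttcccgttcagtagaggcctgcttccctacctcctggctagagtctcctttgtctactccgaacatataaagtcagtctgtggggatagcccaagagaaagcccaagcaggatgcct
Next to these, 2 peaks closer to the gene were lower by less than 2-fold, 24.9 kb upstream (222 and 103 fragments, -0.69) and 11.7 kb downstream of the 5′ end (166 and 76 fragments, -0.71), while one 4.87 kb upstream was higher (328 and 348 fragments, 0.49, 0.27 to 0.71). Of 40 peaks of the Hes1 locus 30 had at least 100 fragments, 19 of these lay above 0, and their median was 0.11.

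Tcf7 (chr11:52252371-52283014, minus strand) encodes TCF-1, an HMG-box factor that is among the first T lineage genes switched on by Notch. The promoter did not differ beyond counting error (504 and 387 fragments, log2 ratio 0.03, -0.17 to 0.22), and the body was lower in aged HSCs (1994 and 1302 fragments, -0.21), though with thinned cells its log2 ratio was -0.09 (-0.26 to 0.07), an interval that holds 0. Of the peaks with at least 100 fragments in the 8 loci, the highest ratio was in the Tcf7 flank. That peak, at chr11:52333666-52334035, 50.9 kb upstream of the gene, had 70 fragments (2.02 FPM) in young and 231 (8.83 FPM) in aged HSCs. Its log2 ratio was 2.11 (1.74 to 2.54), above that of 99.6% of peaks. The peak lay 27010 bp from the start of Vdac1, a mitochondrial channel gene, and so closer to that gene than to Tcf7, and the Vdac1 promoter had a log2 ratio of -0.06 (-0.16 to 0.04). Its window, chr11:52333726-52334025, held 2 AP-1, 1 ETS, 1 RBPJ and 2 CTCF motifs.
Tcf7 upstream peak, higher in aged: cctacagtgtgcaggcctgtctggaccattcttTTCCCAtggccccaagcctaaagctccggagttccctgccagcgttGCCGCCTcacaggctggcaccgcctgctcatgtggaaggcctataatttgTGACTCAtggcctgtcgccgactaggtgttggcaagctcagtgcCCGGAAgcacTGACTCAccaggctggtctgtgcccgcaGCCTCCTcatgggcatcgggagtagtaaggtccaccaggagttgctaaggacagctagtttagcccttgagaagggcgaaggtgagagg
Of 37 peaks of the Tcf7 locus 29 had at least 100 fragments. Only 7 of these lay above 0, and their median was -0.13. The lowest of them was exonic, 14.3 kb into the gene at chr11:52268326-52268895, with 148 and 74 fragments (-0.58, -1.02 to -0.18). Intronic peaks under that minimum were lower, at chr11:52256386-52256645 (62 and 13 fragments, -1.76, -2.84 to -0.97) and chr11:52275466-52275585 (23 and 6, -1.37, -3.12 to -0.20). Another under it, at chr11:52274086-52274265, had 28 and 26 (0.30, -0.53 to 1.12).

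Lef1 (chr3:131110471-131224356, plus strand) encodes the HMG-box partner of TCF-1. Neither a bin nor a peak of its locus with at least 100 fragments was past 2-fold, so no sequence is shown. The promoter held 412 fragments in young and 327 in aged HSCs. A pair of start sites 2.33 kb into the gene had 16.2 and 18.4 FPM (0.18, 0.00 to 0.36), and a further start site 3.34 kb in had few fragments, 73 and 95 (0.78, 0.33 to 1.246). Within the gene body 2 intronic peaks differed in opposite directions. The peak at chr3:131208076-131209105, 98.2 kb from the 5′ end, had 642 fragments in young and 320 in aged HSCs (-0.60, -0.80 to -0.40), and the one at chr3:131157256-131158165, 47.2 kb from it, had 371 and 411 (0.55, 0.35 to 0.76). The sum over the body was 3109 and 2388 fragments, a log2 ratio of 0.03 (-0.05 to 0.10). Of 23 peaks with at least 100 fragments 12 lay above 0, with a median of 0.02.

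Bcl11a (chr11:24078056-24174123, plus strand) encodes a zinc-finger repressor needed for B lymphoid development and for silencing of fetal globin genes. It had the most fragments over its body of the 8 genes, not corrected for length, with 280.7 FPM in young and 285.3 FPM in aged HSCs, and the log2 ratios of its promoter and body were -0.02 and 0.02. The gains past 2-fold lay beyond its 3′ end, in a pair of adjacent intergenic peaks at chr11:24236686-24237015 and chr11:24237076-24237265, 159 kb from the 5′ end. The first had 37 and 90 fragments (1.67, 1.12 to 2.28) and the second 35 and 86 (1.68, 1.12 to 2.31). The window around the summit of the second, chr11:24237016-24237315, held 1 E-box and 1 STAT motif, and 42 of its 300 bases are masked as repeats in the reference.
Bcl11a downstream peak, higher in aged: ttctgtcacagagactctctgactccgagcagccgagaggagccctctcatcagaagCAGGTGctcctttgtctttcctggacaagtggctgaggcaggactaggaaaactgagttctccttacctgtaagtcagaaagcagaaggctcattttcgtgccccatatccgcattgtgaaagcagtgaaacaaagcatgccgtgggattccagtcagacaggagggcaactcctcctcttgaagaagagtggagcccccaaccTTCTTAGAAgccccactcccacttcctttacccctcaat
A bin 136.2 kb downstream of the 5′ end, in an intron of the transcript Gm12066, was also past 2-fold, with 49 and 80 fragments (1.10, 0.58 to 1.66). The lowest peak of the Bcl11a locus with at least 100 fragments was intronic, at chr11:24111676-24112205, with 375 and 206 fragments (-0.46, -0.71 to -0.21). Of 45 such peaks 19 lay above 0 and the median was -0.08.

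Bcl11b (chr12:107910403-108003602, minus strand) encodes the zinc-finger factor that commits progenitors to the T lineage. Its promoter was at the bottom of the order in young HSCs together with the annotated 5′ end of Notch1. Bcl11b was the one member past the limit at both promoter and body. The bin past 2-fold higher was intronic, 1.35 kb from the 5′ end, with 42 fragments in young and 66 in aged cells (1.05, 0.48 to 1.65). The intronic signal of Bcl11b rested on few fragments per element: a cluster of 3 peaks 26.3 to 27.3 kb into the gene had 62 and 68, 98 and 110, and 110 and 122 fragments, with log2 ratios of 0.54, 0.57 and 0.55. The highest ratio of a Bcl11b peak with at least 100 fragments was 0.79 (0.28 to 1.31), 23.0 kb in, with 58 and 76 fragments. At that minimum the Bcl11b locus also held losses, with 1 bin and 1 peak past 2-fold lower in aged HSCs, beside 1 bin and 0 peaks past it higher. Of its 10 peaks with that minimum 8 lay above 0, with a median of 0.38 beside 0.00 over all such peaks.

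Satb1 (chr17:51736187-51833290, minus strand) encodes a protein that folds chromatin at lymphoid genes. It was lower in aged HSCs at the promoter (893 and 593 fragments, -0.18) and over the body (3347 and 2203 fragments, -0.20), in each case by less than the limit. Scaled to promoter fragments the promoter had -0.13 (-0.29 to 0.02), and with short fragments alone -0.15 (-0.34 to 0.05). Both of these intervals hold 0. Of 12 annotated start sites, the 3 nearest to the 5′ end had 25.8, 28.1 and 19.6 FPM in young and 22.7, 23.9 and 16.9 FPM in aged HSCs, and the intervals of all 3 log2 ratios lay below 0. These windows overlap and share fragments. Of 14 peaks with at least 100 fragments 3 lay above 0 and the median was -0.24. No bin or peak with that minimum was past 2-fold. The lowest of these peaks was exonic, 72.9 kb into Satb1 at chr17:51760116-51760525, with 82 and 35 fragments (-0.80, -1.44 to -0.24). The highest was 0.79 kb upstream of the 5′ end, with 143 and 126 (0.22, -0.13 to 0.58).

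Tox (chr4:6686353-6991557, minus strand) encodes an HMG-box protein needed for CD4 T cell and innate lymphoid development. At 305.2 kb it is the longest of the 8 genes, and its difference was spread over the body. Of 47 peaks of the Tox locus 16 had at least 100 fragments, 15 of these lay above 0, and their median was 0.38. The promoter peak, at chr4:6989776-6991675, was one of the smaller differences (1323 and 1131 fragments, 0.18, 0.06 to 0.30). The lowest of the 16 peaks was intronic (63 and 38 fragments, -0.31, -0.94 to 0.28). Past 2-fold were a peak in the UTR near the 3′ end, at chr4:6688046-6688385 with 53 and 89 fragments (1.14, 0.65 to 1.67), and an intronic peak 56.4 kb from the 5′ end at chr4:6934846-6935285, with 82 and 126 (1.02, 0.61 to 1.44). Further intronic peaks 173.0 kb (103 and 153 fragments, 0.97) and 12.9 kb (45 and 64 fragments, 0.90) from the 5′ end came close to that fold. The intronic element is shown, chosen after its values were seen because the largest difference lies in a UTR. Its window, chr4:6934986-6935285, held 1 GATA, 1 RUNX, 1 TCF/LEF and 2 RBPJ motifs.
Tox intronic peak, higher in aged: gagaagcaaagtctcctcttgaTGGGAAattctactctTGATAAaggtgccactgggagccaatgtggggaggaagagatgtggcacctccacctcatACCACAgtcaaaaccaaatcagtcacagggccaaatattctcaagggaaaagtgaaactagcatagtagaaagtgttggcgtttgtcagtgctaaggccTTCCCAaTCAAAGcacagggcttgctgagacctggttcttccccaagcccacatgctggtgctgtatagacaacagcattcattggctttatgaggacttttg
The peaks of the Tox body together held 3514 fragments in young and 3456 in aged HSCs, a log2 ratio of 0.38 (0.31 to 0.45). The 552 bins of the body that no peak touched held 3127 and 3963 fragments, or 0.327 and 0.549 FPM per kb, a ratio of 0.75 (0.68 to 0.82). The difference in Tox was thus larger outside peaks than within them. Over 16724 genes the median of this peak-free ratio was 0.07, the range from the 5th to the 95th percentile was -0.30 to 0.52, and 98.4% of genes lay below Tox. The peak-free bins of chromosome 4 as a whole had 0.13. Bcl11b had a peak-free ratio of 0.33 (0.19 to 0.47), Lef1 0.18, Bcl11a 0.15, Notch1 0.10, Satb1 -0.09 and Tcf7 -0.14, and that of Hes1 (0.76) rested on 2 bins.

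**Figure D3:**
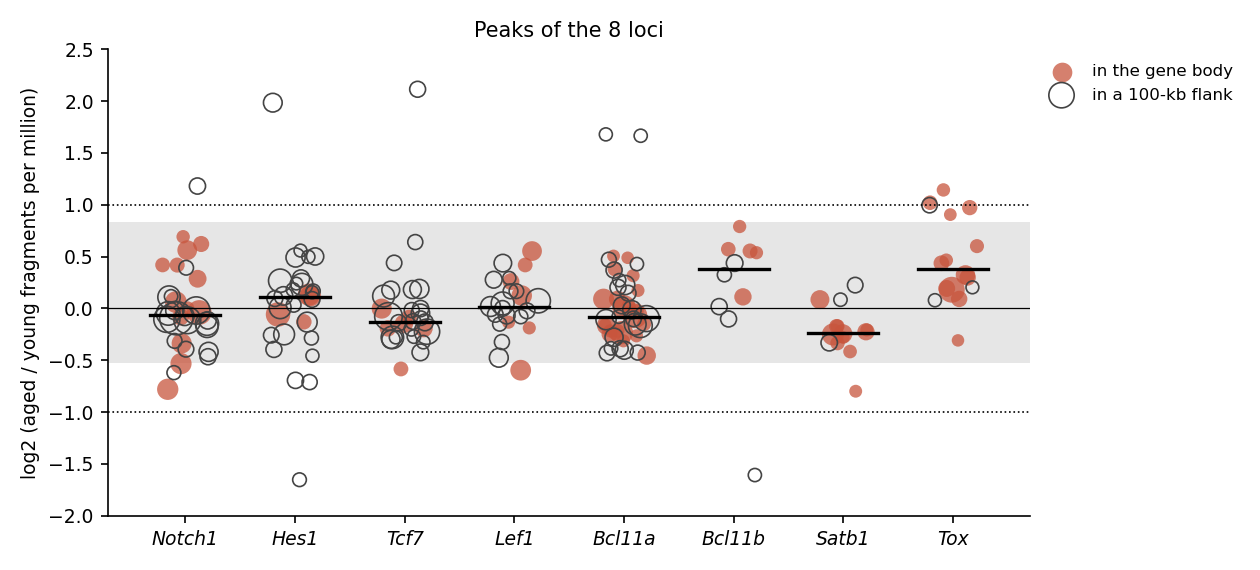
Log2 ratios of aged to young FPM (y axis) of the 199 peaks with at least 100 fragments, by locus (x axis). Filled points lie in the gene body and open points in a 100-kb flank, point size grows with the number of fragments, black bars are medians, the gray band holds the middle 90% of all peaks and dotted lines mark 2-fold. The medians of Tox and Bcl11b lie at 0.38 and that of Satb1 at -0.24, while the peaks past 2-fold of Hes1, Tcf7, Bcl11a and Notch1 are all in flanks.

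In single cells, fragments were counted over the promoter window and the peaks of the gene body, with every cell thinned to 3000 in-peak fragments. Shallower cells were left out, so that 4788 young and 3271 aged cells remained. At that depth Tox was the one gene of the 8 whose share of cells with a fragment differed beyond the counting intervals, with 25.6% (24.4 to 26.9) of young and 33.3% (31.7 to 34.9) of aged HSCs. Of the 16259 protein-coding genes with a fragment in at least 100 cells of the libraries together, 7.45% were higher in aged HSCs by the same measure and 5.64% lower. Without doublet-like cells it was 25.8% and 33.002%. The share was 35.96% and 34.1% for Notch1, 22.1% and 23.5% for Hes1, 13.8% and 12.7% for Tcf7, and 17.98% and 17.7% for Lef1. It was 40.4% and 41.6% for Bcl11a, 8.60% and 9.66% for Bcl11b, and 20.4% and 18.8% for Satb1. The intervals of the 2 ages overlapped for each of these 7 genes at this depth. With cells thinned to 5000 fragments, those of Bcl11b (13.1% in young and 16.4% in aged cells) and Satb1 (30.9% and 27.7%) did not overlap either, beside 38.4% and 47.9% for Tox. That made 2 of the 8 genes higher and 1 lower, where 8.70% of all genes were higher and 6.82% lower at that depth. With short fragments alone, those of Satb1 (13.7% and 11.4%) and Tox (16.4% and 20.6%) did not overlap, where 3.18% of all genes were higher in aged HSCs and 12.0% lower. At their own depth, with medians of 9890 and 11020 fragments per cell, the cells gave 48.4% and 59.97% for Tox and 16.9% and 23.7% for Bcl11b. For comparison, the T cell receptor component gene Cd3e had a fragment in 0.689% and 0.336% of thinned cells over 2369 bp, and Procr in 4.09% and 4.89% over 2001 bp. The windows of the 8 genes ranged from 2792 bp for Hes1 to 14422 bp for Tox, so the shares do not order the genes by openness.

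Few cells held more than 1 Tox fragment. A thinned young cell held 0.298 of them on average and a thinned aged cell 0.403, 3.78% and 6.08% of cells had 2 or more, and no cell of either age had more than 4. At means this low the counts cannot tell whether the cells were alike. Summed over the 8 genes, a thinned cell held a median of 2 fragments at both ages, with means of 2.21 and 2.27, and 11.4% of young and 10.4% of aged HSCs held none.

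**Figure D4:**
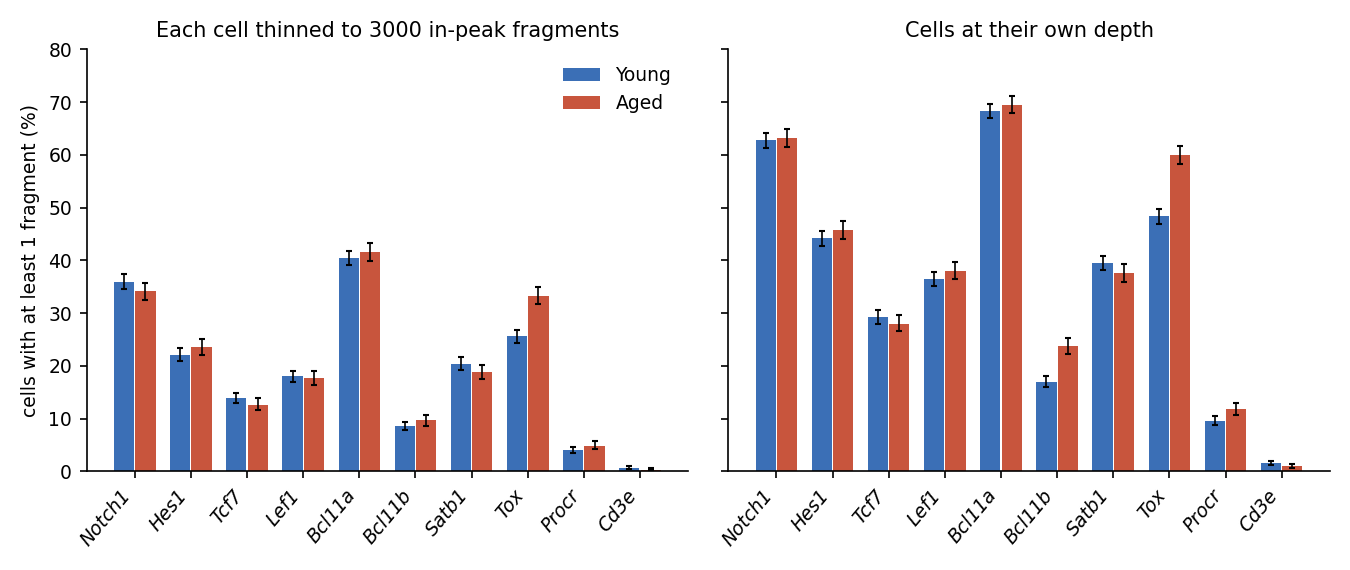
Share of cells (y axis, %) with at least 1 fragment in the promoter or body peaks of each gene, for young (blue) and aged (red) HSCs, with exact binomial 95% intervals. The left panel shows cells thinned to 3000 in-peak fragments and the right panel cells at their own depth. Tox stands at 25.6% in young and 33.3% in aged thinned cells, and the HSC marker Procr and the T cell gene Cd3e are shown for scale.

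The promoters of related genes were counted from fixed lists. Of 30 other genes of the Notch pathway 29 had at least 100 fragments, with 0 past the limit higher and 2 lower and a median log2 ratio of -0.03, beside 8.35% higher and 2.61% lower among all promoters. Those lower were the receptor Notch4 (119 and 70 fragments, -0.35, -0.81 to 0.08) and Psen2, a catalytic subunit of the protease that cleaves Notch (90 and 53 fragments, -0.35, -0.88 to 0.15), and both intervals hold 0. The 14 paralogs of the members, Notch4 among them, had a median of -0.07. The paralogs Tox2 (0.25) and Tox3 (0.27) lay above 0 by less than the limit and Tox4 below it (-0.20).

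Of 30 other regulators of T specification 28 passed the minimum, with 3 higher, 0 lower and a median of -0.07, beside 8.35% higher and 2.61% lower among all promoters. Among those higher, Lmo2, a LIM-domain adaptor of stem cell transcription complexes, had 167 and 177 (0.49, 0.18 to 0.80), and Gata3, the partner of Tcf7 in T specification, had 468 and 479 (0.44, 0.25 to 0.63). The core factors Runx1 (-0.11), Ikzf1 (-0.02), Spi1 (-0.02) and Myb (-0.18) differed by less than the limit.

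Genes of T cell effector and receptor functions were mostly closed, and 14 of 30 had at least 100 fragments. Of these 6 were lower and 2 higher, beside 2.61% lower and 8.35% higher among all promoters, with a median log2 ratio of -0.20. Levels were low: the median over the whole list was 1.95 FPM in young and 1.36 FPM in aged HSCs. The lowest values included the inhibitory receptor Cd5 (140 and 53 fragments, -0.98, -1.48 to -0.53) and the interleukin-7 receptor gene Il7r (79 and 40 fragments, -0.56, -1.16 to -0.01), and Cd6, Cd7 and Ubash3a were also among those lower. Those higher were the costimulatory receptor Cd28 (129 and 222 fragments, 1.18, 0.87 to 1.51) and the adaptor Skap1 (229 and 240 fragments, 0.47, 0.21 to 0.74).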

How the data were processed

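Single-cell ATAC-seq of sorted HSCs was analysed in 1 young and 1 aged library, grouped by the labels. Per the labels and methods, the authors aligned reads to mm10 with Cell Ranger ATAC and analysed the data with Signac. The methods name a 2.x release, while the table layout is that of an earlier one, which was left unresolved. The authors deposited unique fragments and a table of raw counts per barcode, not normalized, with called cells marked. Called cells with 3000 to 20000 in-peak fragments in that table were kept. Other limits of the study (over 15% in peaks, blacklist ratio under 0.05, nucleosome signal under 4, TSS enrichment over 2), all called cells, doublets left out, other scalings, windows, folds and minimums were alternatives.

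Peaks were called per library from cut sites (151-bp windows, tested against whichever was higher of the genome mean and the mean of 10 kb) by a Poisson test (q under 0.001), joined across 50 bp, kept from 100 bp and merged into 165670. Fragments were scaled to the 34649176 young and 26155668 aged fragments in peaks. Log2 ratios used a pseudocount of 1 fragment, with the exact (Clopper-Pearson) interval of the binomial share, and levels an exact Poisson interval. Annotation was GENCODE M21 on GRCm38, and sequences came from RefSeq's GRCm38 genome. Fragments are unique by position within a barcode and carry no molecular identifiers. The 8 members and all gene lists were chosen with earlier results of these data known. All members were named, from the lists the 3 highest and 3 lowest promoters past a log2 ratio of 0.32 with at least 100 fragments, and from each locus the highest and the lowest bin and peak; other names were chosen after their values were seen. Some items that this rule names are not reported here. Python 3.11.15, numpy 2.4.6, scipy 1.17.1, pandas 2.3.3 and matplotlib 3.10.9 were used, and the steps were tested on simulated data.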

Additional observations from a re-analysis of the deposited data

How the results depend on the processing

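The alternatives were run on the promoters, bodies, counts of bins and shares of cells of the 8 genes, not on single bins, single peaks or the promoters of the lists. The promoter and body ratios past the limit, those of Tox and Bcl11b, kept their direction. The log2 ratio over the Tox body stayed between 0.50 and 0.60, that of Bcl11b between 0.27 and 0.40 and its promoter between 0.35 and 0.49. With a window of 500 bp the Bcl11b promoter had 0.35 (-0.04 to 0.75), an interval that holds 0. The median over the promoters moved between -0.06 and 0.05 and took the opposite sign under 5 alternatives, and that over the bodies moved between -0.03 and 0.08 and did so under 2, so neither has a direction. The Lef1 promoter ran from -0.24 (window of 500 bp) to 0.31 (subnucleosomal fragments, those shorter than the DNA of 1 nucleosome), and the cause was not tested.

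Promoters past the limit of 0.32 numbered 1, that of Bcl11b, which was higher, and 0 were past 1.5-fold. They became 2 with subnucleosomal fragments, which added Tox higher (0.32), and with windows of 5000 bp (-0.51, -0.65 to -0.38) or the flank density subtracted (-0.46, -1.02 to 0.05), which each added Notch1 lower. Gene bodies past it numbered 2 and became 1 when scaled to all nuclear fragments, when thinned or with subnucleosomal fragments, and 0 at 1.5-fold, Bcl11b being the body that dropped in the first 3. Bins past 2-fold higher and lower, 14 and 2, became 2 and 1 when thinned, 29 and 8 with at least 50 fragments, 3 and 0 with at least 200, 39 and 12 at 1.5-fold, 8 and 4 with bins of 1000 bp, 8 and 1 with flanks of 50 kb, and 4 and 0 over the gene body alone. Subnucleosomal fragments gave 6 higher, and cut sites gave 21 higher and 7 lower. Thinning and higher minimums leave fewer bins to count, so these counts hold for the stated depth only. The median share of cells with a fragment, 21.3% in young and 21.2% in aged, became 41.8% and 41.9% without thinning, 32.9% and 31.8% when thinned to 5000, and 15.02% and 14.5% with subnucleosomal fragments. Other scalings shifted every log2 ratio by -0.03 (all nuclear fragments), 0.05 (promoter fragments) and 0.00 (median ratio over peaks). Leaving out the 26 barcodes found in both libraries, an alternative chosen after seeing the data, moved no count of promoters, bodies or bins. No paired analysis was possible because each age has 1 library, and for the same reason no replicate could be left out.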

Other observations

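Within 100 kb of the 8 genes lay the 5′ ends of 15 other protein-coding genes, all beside Notch1, Tcf7, Lef1 or Bcl11a, and 14 of them had at least 100 fragments. The other, the olfactory receptor gene Olfr1371 beside Tcf7, had 26 and 36 (0.86, 0.11 to 1.66). The median log2 ratio of the 14 was -0.05, with 0 past the limit of 0.32 in either direction, beside 8.35% higher and 2.61% lower among all promoters. The most open was Sec16a, which encodes a protein of the export sites of the endoplasmic reticulum, 71.45 kb from the Notch1 start, with 118.6 FPM in young and 111.4 FPM in aged HSCs (-0.09, -0.16 to -0.02). Beside Tcf7, the ubiquitin ligase subunit gene Skp1a had 41.4 and 35.6 FPM (-0.22, -0.34 to -0.10), and beside Notch1 the immune adaptor gene Card9 had 7.22 and 5.93 FPM (-0.28, -0.58 to 0.01).

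Markers of other cell types were counted as for the T cell list. Among all promoters 8.35% were past the limit higher and 2.61% past it lower. Of 12 HSC markers 11 passed the minimum, and Slamf1, which encodes the sorting marker CD150, was the one past the limit (246 and 251 fragments, 0.43, 0.18 to 0.69). Of 10 NK cell markers 5 passed, with Prf1 higher (0.56) and sums of 41.6 and 46.6 FPM. Of 10 B cell markers 8 passed, with Blnk among those lower (-0.40) and sums of 75.1 and 71.3 FPM. Of 10 myeloid markers 6 passed, with sums of 40.4 and 39.7 FPM. Elane was higher (55 and 71 fragments, 0.77, 0.25 to 1.31) and Mpo lower (99 and 47 fragments, -0.65, -1.20 to -0.15). Of 10 erythroid markers 9 were found in the annotation and 4 passed, none past the limit, with sums of 94.1 and 86.6 FPM. Of 10 megakaryocyte markers 8 passed, with Selp (247 and 348 fragments, 0.90, 0.66 to 1.14) and Mpig6b (0.45) higher and Itga2b (-0.35) lower, and sums of 161.9 and 159.1 FPM. No list had a gene without fragments at either age.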
